A study of Mus musculus with 4 samples.

Results

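The 10 enzymes described here make prostaglandins, thromboxane and leukotrienes from arachidonic acid. They are the cyclooxygenases *Ptgs1* and *Ptgs2*, the prostanoid synthases *Ptgds*, *Hpgds*, *Ptges* and *Tbxas1*, and the leukotriene genes *Alox5*, *Alox5ap*, *Lta4h* and *Ltc4s*. They were chosen by gene symbol, and all 10 were found among the 24421 symbols measured. Expression was measured by RNA-sequencing of poly(A) RNA from epididymal adipose tissue, a visceral fat pad, of male C57BL/6J wild-type mice. Ctrl mice were placed on high-fat diet (HFD) at 10 weeks of age and stayed on it for 14 weeks. WC1 mice, the weight-cycling group, were placed on HFD at 8 weeks of age for 8 weeks, changed to standard diet (SD) for 2 weeks, and returned to HFD for 6 weeks. Total HFD feeding was thus 14 weeks in each group and both ended at 24 weeks of age, but the groups differed in the age at which HFD began and in the length of the last HFD period, which cannot be told apart from the cycling itself. There were 2 libraries per group. The labels do not say whether a library came from 1 mouse or from several, so the p-values measure the spread between these libraries, which may be partly technical.

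Arachidonic acid is cut from membrane phospholipids and is then oxidised along separate routes. Cyclooxygenases convert it to prostaglandin H, which terminal synthases turn into prostaglandins D and E or thromboxane. Alternatively, 5-lipoxygenase, helped by its activating protein, makes leukotriene A, which is hydrolysed to leukotriene B or joined to glutathione to give leukotriene C. In adipose tissue these enzymes are known from macrophages, mast cells and other leukocytes, and also from adipocytes and vessels, and their products act on inflammation and lipolysis.

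The leukotriene route changed at 3 of its 4 genes. *Alox5ap* and *Alox5* fell in WC1, *Ltc4s* rose, and *Lta4h* had almost the same mean in both groups. None of the 5 tested cyclooxygenases and prostanoid synthases among the 10 passed the test. WC1 was compared with Ctrl by limma, a linear model fitted across genes, on log2(CPM + 1), and a gene was called changed at a Benjamini-Hochberg adjusted p below 0.05 over the 14106 genes tested. CPM here is the deposited value, which is proportional to the reads of a gene. Over all genes tested 17.9% were called, 10.2% higher and 7.71% lower. Of the 10 enzymes, 9 were tested, 1 was called higher, 2 were called lower, 6 were not called, and *Ptgds* was below the expression filter. The libraries of the groups did not overlap for 6 of the 9 tested enzymes, with WC1 above Ctrl in 2 and below it in 4, against 69.3% of all genes tested, 32.7% above and 36.6% below. The median log2 fold change of the 9 was 0.02, against -0.02 over all genes tested. For 1 gene, 2 libraries against 2 allow no exact permutation p below 0.333, so the calls rest on a spread estimated across genes.

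The sequence before the start site is shown for both called leukotriene enzymes that have an entry in RefSeq's promoter table and moved in opposite directions. The coordinates are those of GRCm38.p6, and both genes lie on the minus strand. *Alox5* is on chr6:116410071-116461178 and *Ltc4s* on chr11:50236461-50238532. The window of *Alox5*, chr6:116461179-116461428, covers the 250 bases before the start. That of *Ltc4s*, chr11:50238617-50238782, leaves out the 84 bases nearest to the RefSeq start, because a longer transcript in GENCODE M21 begins there.
Alox5: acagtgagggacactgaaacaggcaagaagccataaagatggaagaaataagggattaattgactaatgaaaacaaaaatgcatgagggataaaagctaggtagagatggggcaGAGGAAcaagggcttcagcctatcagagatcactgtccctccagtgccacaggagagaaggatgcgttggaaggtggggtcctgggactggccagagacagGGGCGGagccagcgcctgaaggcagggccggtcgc
Ltc4s: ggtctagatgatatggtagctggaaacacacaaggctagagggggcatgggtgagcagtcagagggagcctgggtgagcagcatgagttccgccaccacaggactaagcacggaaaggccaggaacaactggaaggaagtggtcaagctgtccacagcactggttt
Both are written 5′ to 3′ on the strand of the gene, and capitals mark matches to the motifs searched.

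The motifs were searched as exact letters on both strands in the 250 bases before the start that the promoter table gives, and they were the core of the myeloid factor PU.1 (GAGGAA), the GC box (GGGCGG), the TATA box (TATAAA), the CCAAT box (CCAAT), a C/EBP core (TTGCGCAA), the cyclic AMP response element (TGACGTCA) and the E-box (CACGTG). In *Alox5* the PU.1 letters stood 136 to 131 bases and the GC box 35 to 30 bases before the start, without overlapping. None of the 7 motifs was found in the 250 bases of *Ltc4s*. For *Ptgs1*, *Ptgds*, *Hpgds*, *Ptges* and *Tbxas1* that window lay inside the RefSeq gene interval, which reaches further upstream than the table's start, so for these 5 it is not the sequence before the whole gene. The PU.1 letters occur in 23.1% of the 27025 promoters of the table. They were found in 3 of the 4 windows that lay before the gene interval (*Ptgs2*, *Alox5* and *Lta4h*) and in 4 of the 5 that lay inside it. The GC box was found in 3 of all 9 windows, against 32.9% of all promoters, and the TATA box in 1, against 13% of all. The CCAAT box occurred in *Lta4h* alone among the 9, against 34.5% of all promoters, and the C/EBP letters in *Ptgs2* alone, against 0.17%. The other letters were in none of the 9 windows, and they occur in 1.62% (TGACGTCA) and 6.05% (CACGTG) of promoters. A match is a stretch of letters and shows no binding.

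*Alox5ap* encodes the membrane protein that presents arachidonic acid to 5-lipoxygenase. Its CPM was 219 and 208 in the Ctrl libraries and 74.3 and 66.9 in the WC1 libraries. Both WC1 libraries lay far below both Ctrl libraries, and the mean was 67.0% lower, at 70.6 ± 5.19 CPM against 214 ± 7.50 CPM (SD, n = 2 each). The log2 fold change was -1.59 ± 0.08 (SE), with a 95% interval of -1.80 to -1.38 and an adjusted p of 0.0044 by limma. Leaving out Ctrl 1 raised the adjusted p to 0.078 and leaving out Ctrl 2 to 0.069, with fold changes of -1.55 and -1.62. Few genes pass without a Ctrl library, since 0.0425% of all genes tested were called without Ctrl 1 and 0.0851% without Ctrl 2. The adjusted p over all 14 alternatives lay between 1.38e-47 and 0.078. GENCODE M21 places the antisense gene *Gm19719* over *Alox5ap*, which lies on chr5:149265004-149288153. No source used here says whether reads were assigned by strand.

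*Alox5*, the 5-lipoxygenase that starts leukotriene synthesis, was far less abundant. Its level was 15.3 and 18.3 CPM in Ctrl and 9.69 and 10.1 CPM in WC1. The groups did not overlap, and the WC1 mean of 9.89 ± 0.28 CPM (SD, n = 2) was 41.1% below the Ctrl mean of 16.8 ± 2.12 CPM. The log2 fold change was -0.70 ± 0.12 (SE, 95% interval -1.0 to -0.40), with an adjusted p of 0.025 by limma. Without Ctrl 1 the adjusted p was 0.146 and without Ctrl 2 it was 0.148, in a range of 0.000112 to 0.148 over all alternatives.

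*Ltc4s*, which joins leukotriene A to glutathione, moved the other way. It rose from 65.3 and 76.9 CPM in Ctrl to 98.4 and 124 CPM in WC1. Both WC1 libraries were above both Ctrl libraries, and the mean was 56.6% higher, at 111 ± 18.4 against 71.1 ± 8.21 CPM (SD, n = 2 each). The log2 fold change was 0.63 ± 0.14 (SE, 95% interval 0.27 to 1.0) and the adjusted p was 0.044 by limma. The call was lost without the expression filter, at an adjusted p of 0.074 in a fit that called 7.28% of genes, and without Ctrl 1 (0.255) or Ctrl 2 (0.140), in a range of 0.000875 to 0.255 over the alternatives. The antisense gene *Gm26542* overlaps *Ltc4s*.

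*Lta4h*, the hydrolase that makes leukotriene B, lies on chr10:93453396-93484896. Ctrl libraries had 84.5 and 81.9 CPM and WC1 libraries 85.9 and 83.0 CPM. The groups overlapped, and the log2 fold change was 0.02 ± 0.07 (SE, adjusted p = 0.83 by limma). Its 95% interval of -0.15 to 0.19 was the narrowest among the 9 tested enzymes.

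**Figure D1:**
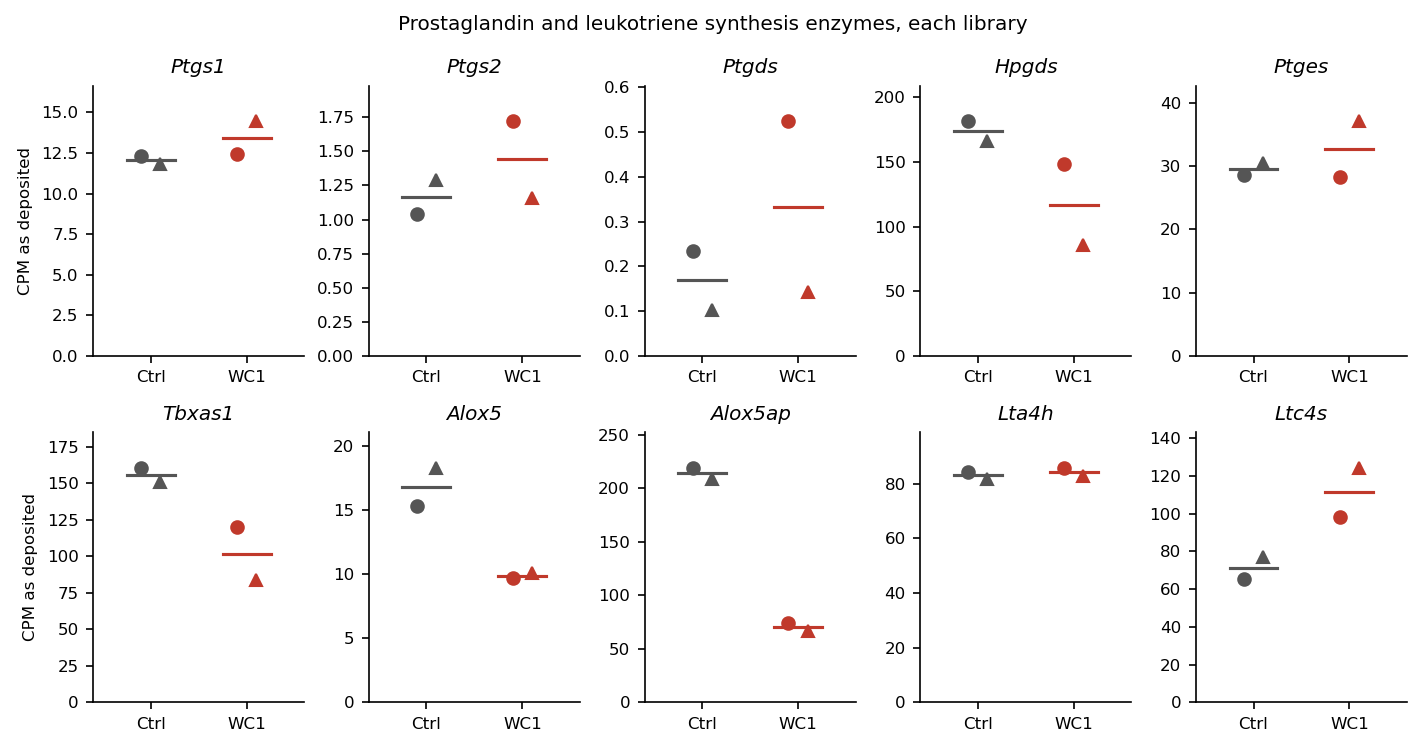
CPM as deposited (linear axis from 0, scaled separately for each gene) of the 10 enzymes in each library. Circles are replicate 1, triangles replicate 2, grey is Ctrl, red is WC1 and bars are group means. Alox5ap and Alox5 are lower and Ltc4s is higher in both WC1 libraries, whereas the Lta4h points coincide.

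Set per transcript length, in TPM, the order of the leukotriene genes differed between the groups. In Ctrl, *Alox5ap* was the most abundant of the 10 enzymes at 405 ± 11.4 TPM (SD, n = 2), followed by *Ltc4s* at 232 ± 28.5 TPM. In WC1, *Ltc4s* came first at 402 ± 75.1 TPM, and *Alox5ap* followed at 147 ± 7.5 TPM. The TPM of *Alox5ap* over that of *Ltc4s* was 1.94 and 1.57 in Ctrl libraries, against 0.438 and 0.312 in WC1 libraries. The ratio was thus above 1 in both Ctrl libraries and below 1 in both WC1 libraries. *Alox5ap* over *Alox5* was 40.0 and 31.8 in Ctrl and 21.4 and 18.5 in WC1, so the activating protein transcript remained far above that of its enzyme in every library. *Ltc4s* over *Lta4h* was 2.72 and 3.30 in Ctrl and 4.02 and 5.26 in WC1. These ratios use the called genes again and were not tested.

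The remaining levels kept a similar order. *Tbxas1* stood at 151 ± 5.5 TPM in Ctrl and 109 ± 24.7 TPM in WC1 (SD, n = 2 each), next below both of these in either group. *Hpgds* (101 ± 5.7 TPM) was above *Lta4h* (77.3 ± 1.2 TPM) in Ctrl, whereas in WC1 they overlapped, at 74.8 ± 26.6 and 86.6 ± 0.15 TPM. *Ptges*, *Alox5* and *Ptgs1* lay between 7.40 and 19.0 TPM as group means, with *Alox5* above *Ptgs1* in Ctrl and below it in WC1. *Ptgs2* and *Ptgds* were lowest, their values overlapped in each group, and their group means lay between 0.381 and 0.850 TPM.

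Both cyclooxygenases were low, and neither passed the test. *Ptgs1*, the constitutive form on chr2:36216742-36258593, stood at 12.3 and 11.8 CPM in Ctrl and 12.4 and 14.5 CPM in WC1. The groups did not overlap, but WC1 1 exceeded Ctrl 1 by little, and the log2 fold change was 0.14 ± 0.11 (SE, 95% interval -0.14 to 0.42, adjusted p = 0.40 by limma). *Ptgs2*, the inducible form on chr1:150100031-150108234, had 1.04 and 1.29 CPM in Ctrl and 1.72 and 1.16 CPM in WC1. These correspond to 71, 112, 105 and 73 reads. WC1 1 was the highest and WC1 2 lay between the Ctrl libraries, and the log2 fold change was 0.17 ± 0.17 (SE, 95% interval -0.26 to 0.60, adjusted p = 0.51 by limma). *Ptgs1* exceeded *Ptgs2* in every library, by 17.3-fold and 13.4-fold in TPM in Ctrl and by 10.5-fold and 18.2-fold in WC1.

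The prostaglandin D synthases were represented almost wholly by *Hpgds*, the hematopoietic form, on chr6:65117293-65144981. Ctrl libraries held 182 and 166 CPM of it and WC1 libraries 148 and 85.7 CPM. Both WC1 libraries were lower, but WC1 2 was far below WC1 1, and the log2 fold change of -0.62 ± 0.26 (SE, 95% interval -1.28 to 0.05) did not pass the test (adjusted p = 0.152 by limma). The value depended on that library. It was -1.01 without WC1 1 and -0.23 without WC1 2. The adjusted p lay between 0.062 and 0.226 over the alternatives that kept all 4 libraries. *Ptgds*, the lipocalin form on chr2:25466709-25470110, was covered by 16 and 9 reads in the Ctrl libraries and by 32 and 9 in the WC1 libraries. The groups overlapped at 0.103 to 0.524 CPM, and the gene was not tested, because genes had to reach 0.5 CPM in at least 2 libraries.

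*Tbxas1*, the thromboxane synthase, had a log2 fold change close to that of *Hpgds*. It had 161 and 151 CPM in Ctrl and 120 and 84.0 CPM in WC1. Both WC1 libraries were lower, and the mean was 34.6% below that of Ctrl. The log2 fold change was -0.63 ± 0.17 (SE, 95% interval -1.08 to -0.18), and the adjusted p was 0.066 by limma. It passed in 4 of 14 alternatives, among them DESeq2 on the recovered reads (0.0054) and the fits without WC1 1 (0.00091) and without WC1 2 (0.022), which called 27.4%, 36.7% and 18.8% of all genes. The fold change was -0.88 without WC1 1 and -0.38 without WC1 2. Its adjusted p lay in a range of 0.00091 to 0.304 over the alternatives. *Tbxas1*, on chr6:38864159-39084590, overlaps *Hipk2* on the opposite strand, which had 14.1 to 18.4 CPM. The TPM of *Hpgds* over that of *Tbxas1* was 0.677 and 0.658 in Ctrl libraries against 0.741 and 0.612 in WC1 libraries, and these overlapped.

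*Ptges*, the inducible microsomal prostaglandin E synthase on chr2:30889471-30931020, had 28.6 and 30.6 CPM in Ctrl and 28.3 and 37.1 CPM in WC1. WC1 1 was the lowest and WC1 2 the highest of the 4 libraries. The log2 fold change was 0.13 ± 0.14 (SE, 95% interval -0.23 to 0.49, adjusted p = 0.54 by limma). It was 0.32 without WC1 1 and -0.06 without WC1 2, so the direction rested on 1 library. The adjusted p lay between 0.28 and 0.60 over the alternatives that kept all 4 libraries.

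**Figure D2:**
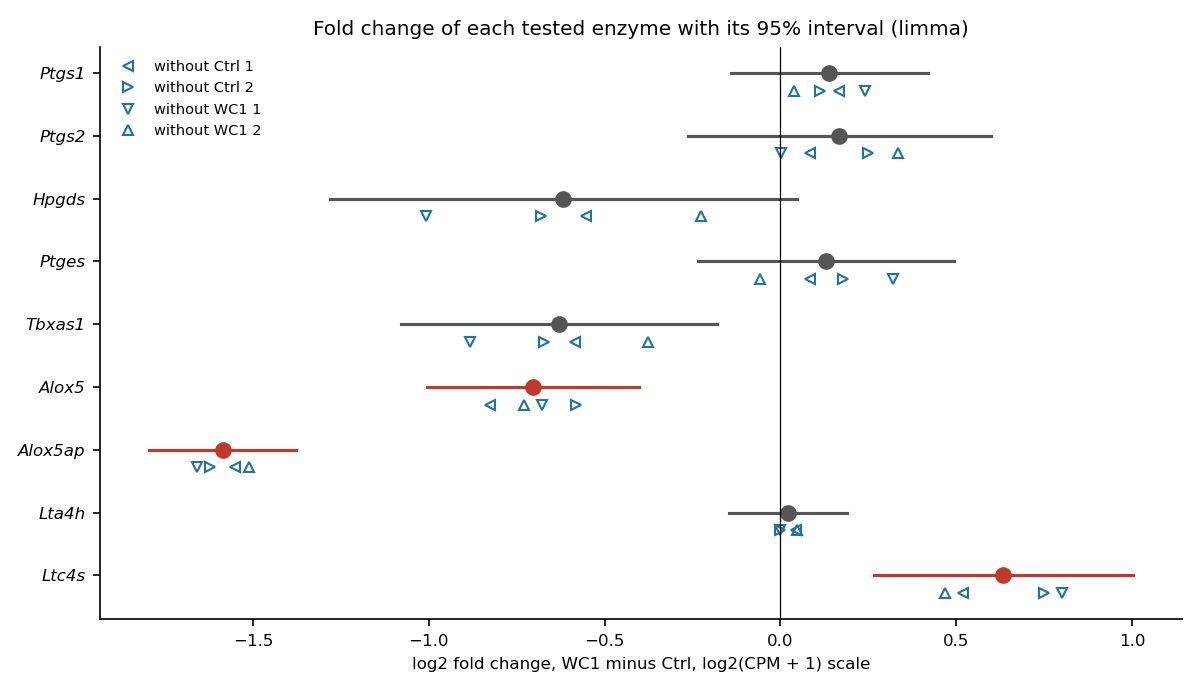
Log2 fold change, WC1 minus Ctrl on the log2(CPM + 1) scale, of the 9 tested enzymes (filled points) with 95% intervals from limma. Red marks adjusted p below 0.05 and open triangles are the values with 1 library left out. Alox5ap, Alox5 and Ltc4s keep their side of 0 in all 4, as do the uncalled Ptgs1, Ptgs2, Hpgds and Tbxas1. Ptges and Lta4h cross it.

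Markers of the cell types that use these enzymes also differed between the groups. Of 12 macrophage markers 6 were called lower in WC1, and 10 lay below Ctrl in both WC1 libraries. Over all genes tested these shares were 7.71% and 36.6%. The 12 markers summed to 13114 and 12041 CPM in Ctrl and 7844 and 5611 CPM in WC1. Among them *Lyz2*, the macrophage lysozyme, fell with a log2 fold change of -1.25 (adjusted p = 0.036 by limma), whereas *Cd68* had -0.67 (adjusted p = 0.0998). *Cd163*, not called (0.36), was the 1 marker of the list above Ctrl in both WC1 libraries. Of 7 markers of lipid-associated macrophages 2 were called lower, and 6 lay below Ctrl in both WC1 libraries. The sums were 14912 and 13130 against 9786 and 5753. The called ones were *Spp1* (-2.70) and *Cd9* (-0.93), whereas *Gpnmb* and *Lgals3*, the most abundant, were not called (-1.08 and -0.65). Mast cell markers had the largest median difference of the 14 lists, leaving out the epididymis list, which had no tested gene. Of the 10 markers 8 were called lower, with sums of 580 and 648 in Ctrl against 94.8 and 78.3 in WC1. The mast cell proteases *Tpsb2* and *Mcpt4* fell by 3.28 and 3.14 on the log2 scale.

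Platelet and megakaryocyte markers summed to 118 and 130 CPM in Ctrl and 81.1 and 63.8 in WC1. Of 8 markers 6 were tested and 2 were called lower, and 5 lay below Ctrl in both WC1 libraries. *Pf4* was called lower (-0.88) and *Itgb3* was not called. Adipocyte markers were called higher at 8 of 10 genes, *Car3* (1.49) among them but not *Fabp4* (0.80). All 10 lay above Ctrl in both WC1 libraries, with sums of 12218 and 14335 against 23215 and 31058. Over all genes tested 10.2% were called higher and 32.7% lay above. All 6 endothelial markers were called higher, with sums of 361 and 408 against 775 and 1003. *Cdh5* and *Pecam1* were the most abundant of them. Of 6 pericyte and smooth muscle markers 4 were called higher, *Acta2* and *Notch3* included. All 6 lay above Ctrl in both WC1 libraries, with sums of 246 and 259 against 432 and 499. Of 7 fibroblast and progenitor markers 3 were called lower (*Dcn* among them), with sums of 3194 and 3246 against 2650 and 2524. *Col15a1*, *Cd55* and *Dpp4*, not called, lay above Ctrl in both WC1 libraries.

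The other lists were small. Neutrophil markers summed to 20.6 to 30.1 CPM, and *Ngp* was at 0. *S100a8* was called higher, whereas *Csf3r* and *Mmp8*, not called, and *S100a9*, *Cxcr2* and *Retnlg*, below the filter, each lay lower in both WC1 libraries. Eosinophil markers were at 10.1 and 8.22 against 5.28 and 3.81 CPM, with *Ccr3* lower and *Epx* at 0. *Siglecf*, not called, and *Prg2*, below the filter, lay above Ctrl in both WC1 libraries, so the fall of the sum came from *Ccr3*. The T cell list (*Cd4*, *Cd3g*) had no call and summed to 4.62 to 8.77 CPM. B cell markers summed to 4.31 and 2.59 in Ctrl and 7.24 and 26.4 in WC1, with *Cd79b* higher and *Cd79a* not called. No mesothelial marker was called (*Upk3b* and *Msln* were the most abundant), at 60.7 to 163 CPM. Of 9 epididymis markers 7 were at 0 in every library, and the sum did not exceed 3.24 CPM, reached in WC1 1 through *Adam7*, with *Rnase10* the other one detected. In bulk tissue fewer cells of a type and less RNA per cell cannot be told apart, and the part of any of these lists in the values of the enzymes was not tested.

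Set against the macrophage list, the enzymes separated. The difference between log2(CPM + 1) of *Tbxas1* and the mean of the 12 markers was -1.46 and -1.49 in Ctrl and -1.42 and -1.53 in WC1. That of *Hpgds* was -1.28 and -1.36 against -1.12 and -1.50, and that of *Alox5* was -4.77 and -4.47 against -4.92 and -4.47. All 3 overlapped between the groups on this scale. As a percentage of the summed CPM of the list, *Alox5* overlapped as well, but for *Tbxas1* the WC1 libraries, at 1.53% and 1.498%, both exceeded the Ctrl libraries, at 1.23% and 1.26%. *Hpgds* was also higher by that measure (1.38% and 1.38% in Ctrl, 1.89% and 1.53% in WC1). The sum is weighted towards abundant markers. *Lyz2* alone held 6190 and 5352 CPM of it in Ctrl and 2875 and 2048 CPM in WC1. On the log2 scale *Alox5ap* was at -1.01 and -1.03 in Ctrl and -2.10 and -1.86 in WC1, so both WC1 libraries were lower. *Ltc4s* was at -2.74 and -2.46 in Ctrl and -1.70 and -0.97 in WC1. Against the mean of the adipocyte list, *Ltc4s* was at -3.34 and -3.44 in Ctrl and -3.78 and -3.89 in WC1, below Ctrl. Its WC1 libraries thus lay above Ctrl against the macrophage list and below Ctrl against the adipocyte list. In the mast cell list 8 of 10 markers were called lower, and *Kit* (-0.39) and *Gata2* (0.16) were not called. Against its mean *Alox5ap* was at 3.01 and 2.77 in Ctrl and 3.43 and 3.45 in WC1. *Hpgds*, *Tbxas1*, *Ltc4s* and *Alox5* were also higher in both WC1 libraries against that list. Their group means went from 2.59 to 4.11, 2.43 to 3.95, 1.31 to 4.09 and -0.71 to 0.73. These differences are descriptions without a test.

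**Figure D3:**
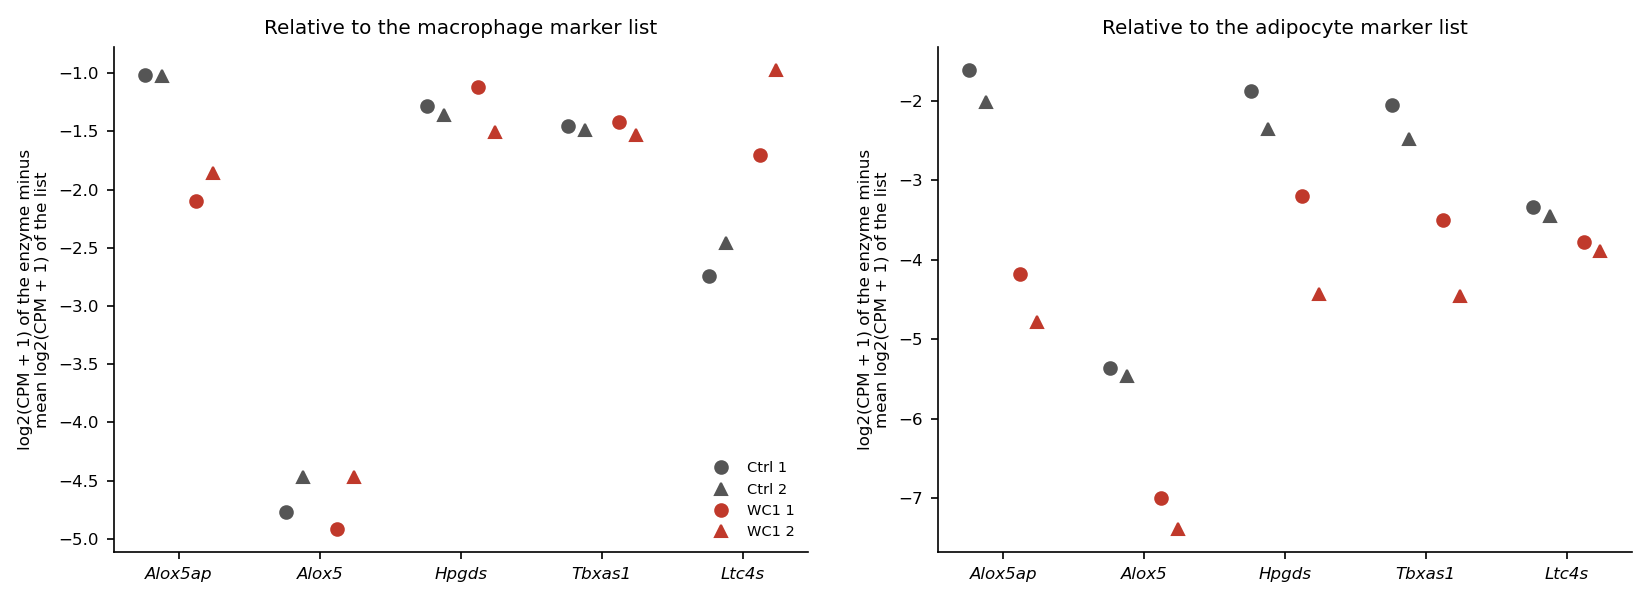
Log2(CPM + 1) of 5 enzymes minus the mean log2(CPM + 1) of the macrophage marker list (left) and of the adipocyte marker list (right), one point per library. Against the macrophage list Tbxas1, Hpgds and Alox5 overlap between the groups, Alox5ap is lower and Ltc4s higher in WC1, whereas against the adipocyte list all 5 are lower in WC1.

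The rest of the pathway was described from a list of 68 symbols ordered by role, of which 65 were in the data and 52 were tested. Among the tested genes 11 rose in WC1, 9 fell, and 32 were not called, where 10.2% of all genes tested were called higher and 7.71% lower. The median log2 fold change was 0.09, and in 40 of the 52 the groups did not overlap, beside 69.3% of all genes tested. Reads of the Cyp and phospholipase families can be shared between similar copies, so single members of these families are uncertain. All 20 calls below are at an adjusted p below 0.05 by limma, and all were lost without Ctrl 1, and all but that of *Ptgr1* without Ctrl 2. Without the expression filter 7 were lost, those of *Fam213b*, *Ptgr2*, *Cyp4f18*, *Ptger2*, *Ephx2*, *Cyp2j9* and *Cyp2c44*, at adjusted p-values of 0.051 to 0.085. Over all alternatives the adjusted p of these 7 lay between 4.05e-05 and 0.287.

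The next group held phospholipases, listed by family, and other enzymes that release arachidonic acid or return it to lipids. It changed in both directions, with 3 of 13 tested genes called higher and 2 called lower. *Pla2g4a*, the cytosolic phospholipase that feeds 5-lipoxygenase and cyclooxygenases, fell from 22.2 and 18.9 CPM to 11.4 and 10.3 CPM (log2 fold change -0.86 ± 0.12 SE, adjusted p = 0.019). *Pla2g7*, counted here by family and known for inactivating platelet-activating factor, fell from 372 and 326 to 112 and 84.5 CPM (-1.83 ± 0.15). In contrast, *Pla2g16*, the main phospholipase of adipocytes, rose from 168 and 195 to 356 and 427 CPM (1.10 ± 0.13). *Mgll*, which splits monoacylglycerols, rose from 620 and 753 to 1392 and 1586 CPM (1.12 ± 0.15). *Pla2g5*, a secreted phospholipase, was rare, at 0.526 and 0.758 CPM against 1.72 and 2.16 CPM (0.84 ± 0.15), and its log2 fold change was 1.605 with edgeR and 1.61 with DESeq2 on the recovered reads. The groups did not overlap for any of these 5 genes.

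Among 6 other prostanoid synthases tested, 1 was called higher and 1 lower. *Ptges3*, a co-chaperone also described as a cytosolic prostaglandin E synthase, fell from 159 and 165 to 111 and 114 CPM (-0.53 ± 0.07). *Fam213b*, a prostamide and prostaglandin F synthase, rose from 46.2 and 43.2 to 64.0 and 84.8 CPM (0.71 ± 0.14). *Ptgis*, the prostacyclin synthase, was not called, at 19.96 and 18.0 CPM in Ctrl and 22.3 and 23.1 CPM in WC1. The TPM of *Tbxas1* over that of *Ptgis* was 7.13 and 7.42 in Ctrl and 4.76 and 3.23 in WC1, lower in both WC1 libraries. Of 7 other lipoxygenases and enzymes that form or cleave glutathione conjugates only *Mgst3* was called, higher at 97.3 and 100.4 against 73.9 and 77.7 CPM (0.38 ± 0.07).

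Genes of breakdown and transport held the lowest fold change of the list. *Ptgr1*, which inactivates leukotriene B and reduces prostaglandins, fell from 130 and 106 CPM to 22.3 and 19.2 CPM (-2.45 ± 0.13, adjusted p = 0.0045). *Abcc1*, the exporter of leukotriene C, fell from 165 and 147 to 66.2 and 66.1 CPM (-1.22 ± 0.08, adjusted p = 0.0078), opposite to *Ltc4s*. *Abcc4*, an exporter of prostaglandin E, fell from 30.4 and 28.8 to 16.2 and 18.0 CPM (-0.76 ± 0.09). *Ptgr2* rose from 93.6 and 89.8 to 118 and 132 CPM (0.44 ± 0.08), and *Cyp4f18*, which hydroxylates leukotriene B, from 9.59 and 9.06 to 12.5 and 13.8 CPM (0.45 ± 0.10), a call that 5 of 14 alternatives lost. The remaining 5 of 10 lay between -0.13 and 0.35.

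Of 7 prostanoid receptors tested 1 was higher, 2 were lower and 4 were not called, at fold changes of -0.31 to 0.22. *Ptger3*, the inhibitory prostaglandin E receptor that restrains lipolysis in adipocytes, rose from 24.5 and 23.8 to 45.7 and 47.0 CPM (0.91 ± 0.07, adjusted p = 0.0092). *Ptger2*, a stimulatory prostaglandin E receptor, was lower at 9.75 and 8.29 against 13.2 and 12.6 CPM (-0.47 ± 0.11, adjusted p = 0.0493), and 6 of 14 alternatives lost that call. *Ptgir*, the prostacyclin receptor, fell from 31.0 and 28.2 to 14.9 and 16.1 CPM (-0.89 ± 0.09). The TPM of *Ptger3* over that of *Ptger2* was 3.48 and 3.53 in Ctrl and 8.76 and 10.6 in WC1. None of the 3 leukotriene receptors tested was called, with fold changes of -0.05 to 0.56, and *Cysltr1*, a receptor of leukotrienes C and D, had 12.02 and 12.2 CPM in Ctrl and 11.7 and 11.6 CPM in WC1.

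In the epoxygenase branch, 3 of 6 genes were called higher and 1 lower. *Ephx2*, the soluble epoxide hydrolase, rose from 165 and 152 to 286 and 223 CPM (0.66 ± 0.14). *Cyp2j9* rose from 4.59 and 5.65 to 9.32 and 13.1 CPM (0.98 ± 0.19). *Cyp2c44* rose from 0.570 and 1.36 to 3.06 and 4.45 CPM (1.29 ± 0.26), and its log2 fold change was 1.97 with edgeR and 1.98 with DESeq2. These 3 calls are among those lost without the filter. *Cyp1b1* fell from 190 and 178 to 84.6 and 57.0 CPM (-1.39 ± 0.19).

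**Figure D4:**
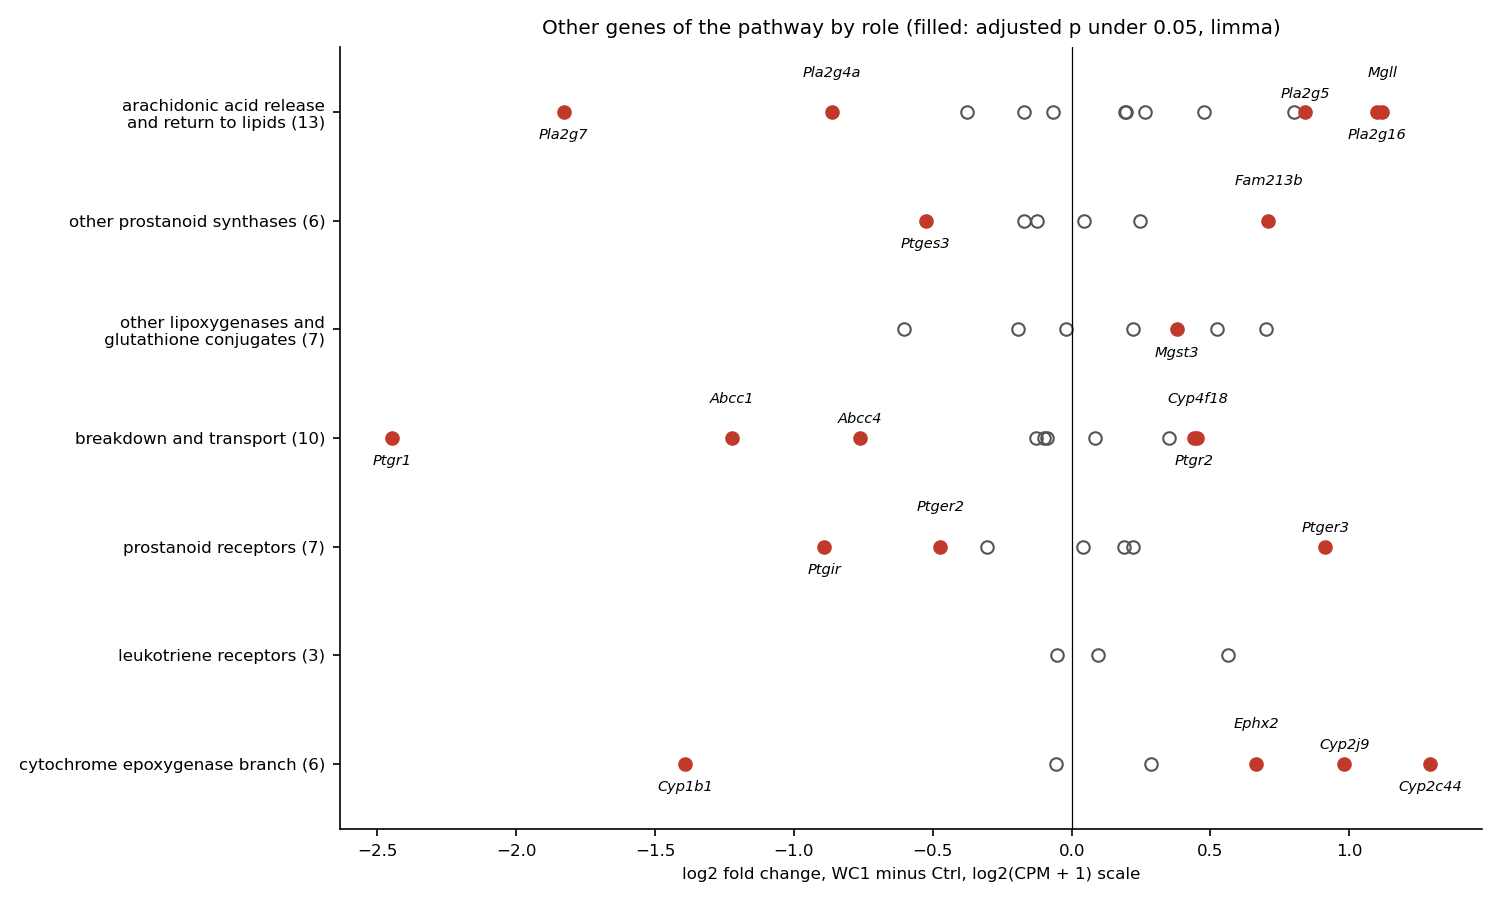
Log2 fold change, WC1 minus Ctrl on the log2(CPM + 1) scale, of the 52 other pathway genes tested, one row per role with the number of genes in parentheses. Filled red points have an adjusted p below 0.05 by limma, 11 to the right of 0 and 9 to the left, with Ptgr1 farthest left at -2.45.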

How the data were processed

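Epididymal adipose tissue libraries of 2 Ctrl and 2 WC1 samples were analysed, grouped by sample title. The submitters' processing notes name fastp, HISAT2, StringTie and mm10. The annotation, the counting and its use of strand are named in no source used here. The authors deposited a matrix called CPM, a signal proportional to reads with a library scaling of their own, and a matrix of TPM, reads per transcript length scaled to the same sum. All CPM values were whole multiples of 1 read to within 0.01 read. The recovered reads came to 71658062 and 90965297 in Ctrl and 61655738 and 61465029 in WC1, and 3 reads, the limit that a count of 0 allows, were 0.0345 to 0.0492 CPM, for counting error only.

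Genes reaching 0.5 CPM in 2 or more libraries (14106 of 24421) were tested by limma 3.58.1 in R 4.3.3 on log2(CPM + 1), with an abundance trend, two-sided and with Benjamini-Hochberg adjustment. On this scale the fold change of a rare gene comes out too small. The alternatives were pseudocounts of 0.5 and 2, no filter, a mean of at least 5 CPM, the TPM matrix, median-of-ratios scaling, quantile normalization, edgeR 4.0.16 and DESeq2 1.42.0 on the recovered reads, each library left out in turn, and a replicate block. The fits were checked on simulated data. Libraries of 1 group differed by more than sampling noise (chi-square over its degrees of freedom, 35.3 for Ctrl and 87.4 for WC1).

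The enzymes, the pathway list and the marker lists were chosen with earlier results of these data known. Named were all 10 enzymes, every called pathway gene and, of each of 14 marker lists, the 2 genes with the highest mean CPM. *Ptgis*, *Cysltr1*, *Spp1*, *Cd9*, *Mmp8*, *S100a9*, *Cxcr2*, *Retnlg*, *Prg2*, *Cd55*, *Dpp4*, *Cd163*, *Kit*, *Gata2*, *Ngp* and *Epx* were added after their values were seen. Coordinates and promoters came from RefSeq (GRCm38.p6, the mm10 build), whose promoter table matched 9 of the 10 enzymes, all but *Alox5ap*.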

Additional observations from a re-analysis of the deposited data

How the results depend on the processing

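No scaling alternative turned the direction of a tested enzyme. The TPM matrix moved the all-gene median log2 fold change by 0.12 and the share of calls that were higher from 57.0% to 77.9%. Of 125 values of the 9 enzymes under the alternatives, 109 kept their direction and their side of the threshold, 7 lost and 6 gained a call, and 3 changed sign. Leaving out 1 library gave -0.059 to 0.32 for *Ptges* and -0.0026 to 0.046 for *Lta4h*, with -0.00072 for *Lta4h* without Ctrl 2. Over all genes 1443 were higher and 1088 lower. These became 788 and 532 with no filter, 583 lower with TPM and 1736 lower with DESeq2, and ranged from 2 to 2424 and from 4 to 2748 with 1 library left out. The lowest came without Ctrl 1, where the 6 calls compare with 2621 genes at an unadjusted p below 0.05. The enzyme counts of 1 higher and 2 lower were 0 higher with no filter and ranged from 0 to 2 and from 0 to 4 with 1 library left out. The pathway counts of 11 higher and 9 lower became 5 higher with no filter and 17 with TPM, and ranged from 0 to 18 and from 0 to 12. Without filter 18132 genes were tested, and the spread across genes was estimated again with the added genes. Without a Ctrl library the lone one is assumed to vary like the WC1 libraries, and the reverse holds without a WC1 library. The causes of the shifts were not tested. The replicate numbers are not stated to pair libraries, and the within-group differences of both groups correlated at 0.19 across genes. Fitting the replicate block called 1769 genes higher and 1497 lower, the enzyme counts were 1 and 3, with *Tbxas1* added (adjusted p = 0.028), and the pathway counts were 15 and 11. With 2 libraries per group, the spread between libraries limits the precision of abundant genes more than depth does.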
